A study of Homo sapiens with 6 samples.

Results

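Neural ectoderm and proneural transcription factors were followed in ectoderm-specified human embryonic stem cells (hESCs) treated with a γ-secretase inhibitor or with its vehicle. The 9 genes were taken by symbol, with no threshold on their measured values, and were PAX6, SOX1, SOX3, OTX1, OTX2, ZIC1, ZIC2, NEUROG1 and POU3F2. All 9 were found among the 23615 genes of the table. Cells of the established line H1 all received 0.5 nM BMP-4 for 3 days and medium with 10% fetal calf serum from day 4 to day 10. DAPT cells were given 5 μM of this γ-secretase inhibitor dissolved in ethanol, and control cells were given ethanol alone. Poly-A RNA was sequenced from 3 libraries per treatment, 6 in all. Every culture derived from the same cell line, and the sources used here do not name separate cultures behind the libraries.

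These factors act in steps as ectoderm becomes neural tissue. SOX1 and SOX3, with their relative SOX2, are high mobility group factors that keep neural precursors undifferentiated. OTX1 and OTX2 are homeodomain factors of the forebrain and midbrain, ZIC1 and ZIC2 are zinc finger factors of the neural plate and its border, and PAX6 is a paired-box factor that in human cells appears early in neuroectoderm and later in eye and forebrain. NEUROG1 is a proneural basic helix-loop-helix (bHLH) factor that starts neuronal differentiation, above all in cranial sensory ganglia. POU3F2, also called BRN2, is a POU-domain factor of neural precursors and neurons. BMP signalling turns ectoderm away from the neural route, and Notch receptors, once cut by γ-secretase, hold proneural genes down through HES factors. The comparison asks how blocking γ-secretase altered transcript levels of cells directed toward surface ectoderm.

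Expression was given as FPKM, fragments counted per length of transcript and per mapped total, with 1 value per treatment computed by the authors over its libraries. No value per library was used, so no SD, interval or test accompanies any value and the depth is unknown. The workbook has 2 sheets that name the treatments in opposite ways for identical values of all 1417 genes they share. The values were named as in the sheet that lists changed genes, where the pluripotency factor POU5F1 had 47.3 FPKM in DAPT cells and 240.1 FPKM in ethanol cells, and the surface ectoderm factor TFAP2A had 21.8 FPKM in DAPT cells and 7.10 FPKM in ethanol cells. The study's quantitative PCR also reported POU5F1 as lower and TFAP2A as higher with DAPT, the directions that this naming gives. With the other naming, every gene given here as higher would be lower. A gene was counted as higher or lower with DAPT where the ratio of the 2 values was beyond 2 and their mean was at least 1 FPKM. This is a rule of size and not a test. In cultures sequenced in bulk, fewer cells of a type and less RNA per cell cannot be told apart.

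The 9 factors did not move as a group. PAX6 and OTX1 were higher with DAPT and SOX3 was lower, while OTX2 and ZIC2, by far the most abundant, differed little between treatments. ZIC1, SOX1, NEUROG1 and POU3F2 were below the minimum of 1 FPKM in both treatments. Of the 5 genes past the minimum, 2 were therefore higher, against 4.13% of the 12776 genes past it in the whole table, and 1 was lower, against 4.79%. The table-wide numbers were 528 genes higher and 612 lower, which became 696 and 463 when ratios were centred on housekeeping genes. The median log2 ratio of DAPT over ethanol was -0.10 for the 5 genes, beside 0.0010 for all genes past the minimum. Over the 8 genes with a value above 0 in both treatments, 4 ratios were positive and 4 negative, with a median of 0.56 beside -0.0090 for 19128 genes. Summed over the 9 genes, expression was 38.4 FPKM in DAPT cells and 39.8 FPKM in ethanol cells.

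**Figure D1:**
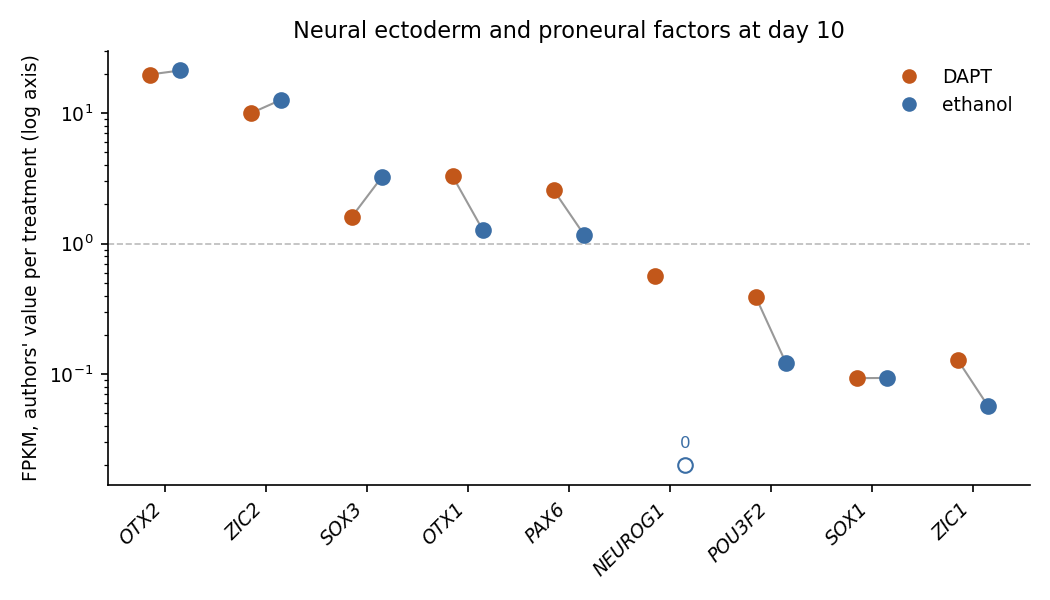
Expression of the 9 factors in FPKM on a log axis, 1 pooled value for DAPT and 1 for ethanol per gene, with the minimum of 1 FPKM as a line. OTX2 (19.8 FPKM in DAPT cells, 21.2 FPKM in ethanol cells) and ZIC2 (9.98 FPKM in DAPT cells, 12.6 FPKM in ethanol cells) stand above the rest, and NEUROG1 is listed at 0 with ethanol.

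In order of level, DAPT cells had OTX2, ZIC2, OTX1, PAX6, SOX3, NEUROG1, POU3F2, ZIC1 and SOX1, whereas ethanol cells had OTX2, ZIC2, SOX3, OTX1, PAX6, POU3F2, SOX1, ZIC1 and NEUROG1. SOX3 thus stood below OTX1 and PAX6 with DAPT and above them with ethanol. Without values per library, it cannot be said which neighbours in these orders differ beyond their spread.

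The share of genes with a ratio beyond 2 depended strongly on level. Among genes with a mean under 0.1 FPKM, 20.0% were beyond 2 upwards and 22.6% downwards. These shares were 14.2% and 19.9% from 0.1 to 0.5 FPKM, and 12.1% and 13.9% from 0.5 to 1 FPKM. From 1 to 5 FPKM, the range that holds PAX6, OTX1 and SOX3, they were 6.75% upwards and 8.36% downwards. At 5 FPKM and over, where OTX2 and ZIC2 lie, they were 2.78% and 2.94%. Each factor was therefore also placed among the genes of its own level.

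**Figure D2:**
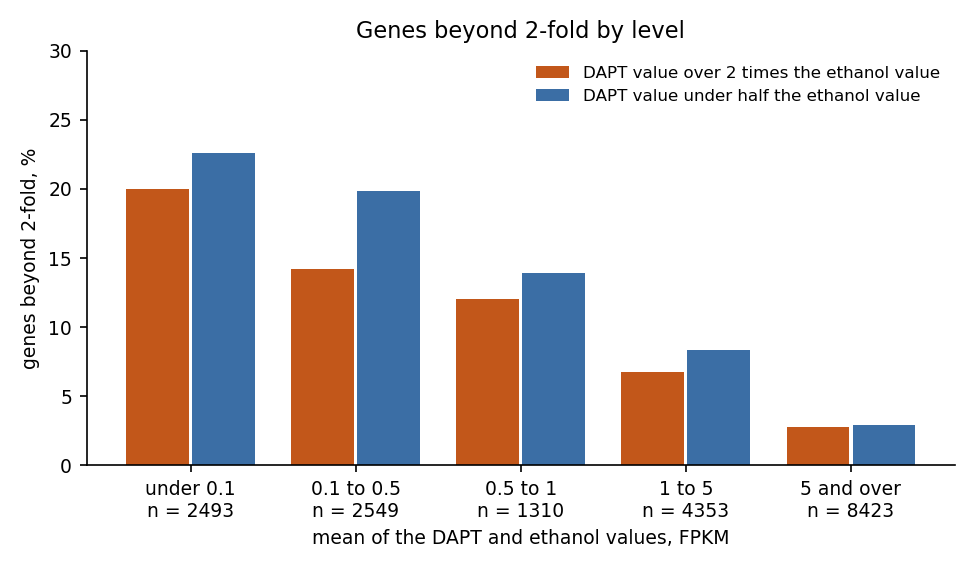
Percent of genes with a DAPT over ethanol ratio beyond 2, upwards and downwards, by mean FPKM of the pair. The upward share is 20.0% under 0.1 FPKM and 2.78% at 5 FPKM and over.

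**Figure D3:**
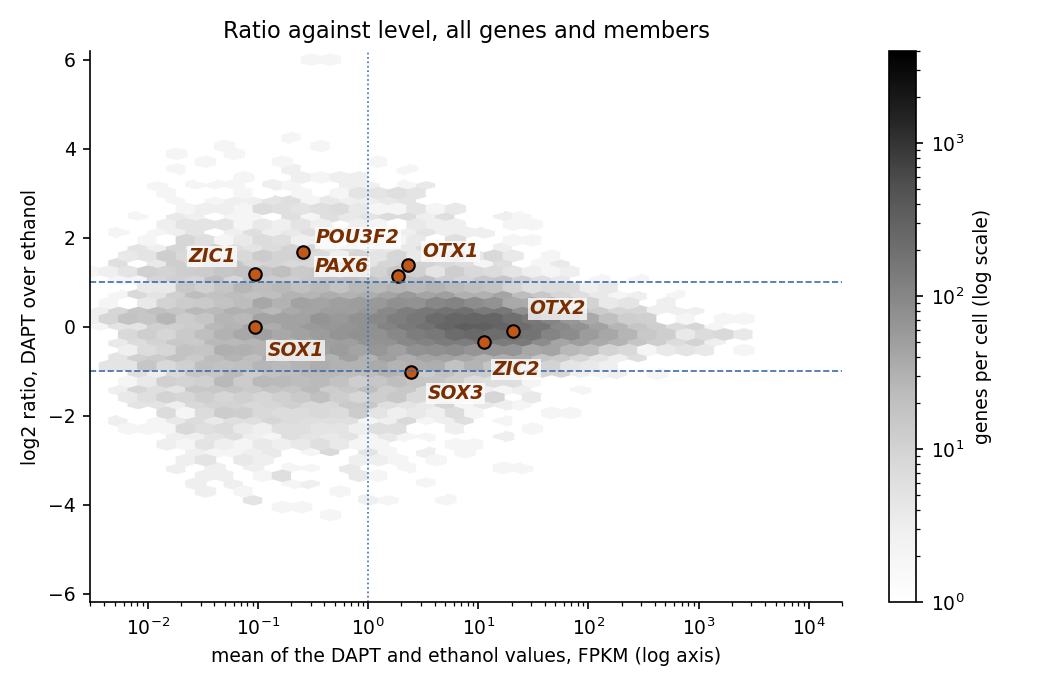
Log2 ratio of DAPT over ethanol (y axis) against the mean of both values in FPKM (log x axis) for all genes above 0 in both, shaded by their number, with the 8 factors that have a ratio as points. Ratios beyond 6 are drawn at 6, and PAX6, OTX1, ZIC1 and POU3F2 lie above the upper line of a log2 ratio of 1, SOX3 just below the lower one.

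PAX6, the paired-box factor of early neuroectoderm and eye, had 2.57 FPKM in DAPT cells and 1.17 FPKM in ethanol cells. Its level was 2.19-fold higher with DAPT (log2 ratio 1.13), and 94.3% of the genes from 1 to 5 FPKM had a lower ratio. With 1 FPKM added to each value the log2 ratio of PAX6 was 0.72, and it was no longer counted as higher. Its filed locus on hg19 is chr11:31806340-31908587 on the minus strand, a gene with 14 exons in its canonical transcript and 81 annotated transcripts. A second row of the table, DKFZp686K1684, shares this locus and had 0.00949 FPKM in DAPT cells and 0.0110 FPKM in ethanol cells. The annotation also places 3 genes of the opposite strand over PAX6. The libraries were made with a stranded kit, but the sources used here do not say whether counting used strand. The study also measured PAX6 by quantitative PCR and reported it as upregulated with DAPT. The primers are shown because they read a part of the gene's transcripts, whereas FPKM sums over all of them.
PAX6 forward: gccctccgctcccaggaatct
PAX6 reverse: cacatctgcgcgcccctagt
On the GENCODE annotation of the same build, the forward primer crosses a junction between exons 1 and 2 of a transcript other than the canonical one. This primer is found in 4 of the 81 transcripts. The reverse primer lies at chr11:31828441-31828460 in exon 3 of the canonical transcript and is found in 43. Both occur in order in 4 transcripts, with a product of 236 bases.

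OTX1 had the largest ratio among the 5 factors past the minimum. This homeodomain factor, which works in forebrain and inner ear development in mouse, had 3.28 FPKM in DAPT cells and 1.27 FPKM in ethanol cells, a 2.59-fold higher level (log2 ratio 1.37). Of the genes from 1 to 5 FPKM, 95.7% had a lower ratio. With 1 FPKM added to each value the log2 ratio of OTX1 was 0.92, and it too was no longer counted. OTX2, needed in mouse to form the forebrain and midbrain, was the most abundant of the 9 and had 19.8 FPKM in DAPT cells and 21.2 FPKM in ethanol cells. Its log2 ratio was -0.10, and 39.0% of genes at 5 FPKM and over had a lower one. This direction turned to 0.06 when ratios were centred on housekeeping genes. The paralog pair thus had unlike ratios, OTX1 higher and OTX2 close to equal, and OTX2 exceeded OTX1 in each treatment. OTX1 is filed at chr2:63277192-63284966 and OTX2 at chr14:57267425-57277194, where 1 gene of the opposite strand overlaps it. Their relative CRX, a photoreceptor factor, was near 0 at 0.0403 FPKM in DAPT cells and 0.0228 FPKM in ethanol cells.

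The SOX factors of the neural lineage were not higher. SOX3, an X-linked gene with a single exon at chrX:139585152-139587225, had 1.60 FPKM in DAPT cells and 3.25 FPKM in ethanol cells. It was 2.03-fold lower with DAPT (log2 ratio -1.02), just past the threshold, and only 7.90% of genes from 1 to 5 FPKM had a lower ratio. Centring on housekeeping genes, whose median log2 ratio was -0.16, gave -0.86 and SOX3 was then no longer counted as lower, nor was it with 0.1 or 1 FPKM added to each value (log2 ratios -0.98 and -0.71). SOX1, the SOX factor most used as a mark of definitive neuroectoderm, had 0.0932 FPKM in DAPT cells and 0.0935 FPKM in ethanol cells. Its log2 ratio was -0.0048. The most specific marker behind the name neural ectoderm was thus near 0 in both treatments. SOX2, a paralog that pluripotent cells and neural precursors share, had 23.1 FPKM in DAPT cells and 31.6 FPKM in ethanol cells and was not counted (log2 ratio -0.45), and its filed locus also holds the noncoding RNA gene SOX2-OT. SOX21, which in chick opposes the other SOX factors in neural precursors, had 2.20 FPKM in DAPT cells and 1.96 FPKM in ethanol cells.

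ZIC2, a neural plate factor whose loss of function in people causes holoprosencephaly, had 9.98 FPKM in DAPT cells and 12.6 FPKM in ethanol cells. Its log2 ratio was -0.34, and 17.7% of genes at 5 FPKM and over had a lower one. ZIC1 had 0.129 FPKM in DAPT cells and 0.0573 FPKM in ethanol cells, a log2 ratio of 1.17 at a level where 20.0% of genes are beyond 2 upwards. These ZIC genes lie in head-to-head pairs. Neighbours had similar ratios, but ZIC1 and ZIC4 had means under 0.1 FPKM, and the log2 ratio of ZIC1 was 0.54 with 0.1 FPKM added to each value. The ratios of ZIC2 and ZIC5 lay within the range of housekeeping genes (-0.57 to 0.36). Whether neighbours are linked was not tested. ZIC1 (chr3:147127181-147134506) lies 2584 bases from ZIC4, which runs on the opposite strand and had 0.0506 FPKM in DAPT cells and 0.0238 FPKM in ethanol cells, a log2 ratio of 1.09. ZIC2 (chr13:100634026-100639019) lies 9847 bases from ZIC5, which had 4.48 FPKM in DAPT cells and 5.29 FPKM in ethanol cells, a log2 ratio of -0.24.

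NEUROG1, the proneural bHLH factor, had 0.564 FPKM with DAPT and was listed at 0 with ethanol, so no fold is given. A value of 0 can be a failed estimate, though the NEUROG1 row was not among those that the authors marked as failed. Of 18 housekeeping genes 0 were listed at 0, but their means were 9.97 FPKM or more, so they cannot inform on low levels. Zeros were common elsewhere, with 3090 genes at 0 in both treatments and 6 of the 36 other proneural and neuronal genes at 0 in a treatment. In the whole table, 56 genes were at 0 with ethanol and at 0.5 FPKM or more with DAPT, and 54 genes showed the opposite. Small RNA symbols made up 53 of the 56 and 48 of the 54, a grouping by symbol made after the values were seen. NEUROG1 was 1 of the 3 remaining genes of the 56. The gene has a single exon at chr5:134869972-134871639, and 2 genes of the opposite strand overlap it. Its paralogs NEUROG2 (0.0438 FPKM in DAPT cells, 0.105 FPKM in ethanol cells) and NEUROG3 (0 in both) did not share its direction.

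POU3F2, also a single-exon gene (chr6:99282580-99286666), had 0.393 FPKM in DAPT cells and 0.122 FPKM in ethanol cells. Its log2 ratio of 1.69 was the largest of the 8 genes with a ratio, and 93.0% of genes from 0.1 to 0.5 FPKM had a lower one. At this level 14.2% of genes were beyond 2 upwards. With 1 FPKM added to each value its log2 ratio was 0.31. POU3F1, the relative best known from Schwann cells and keratinocytes, had 0.773 FPKM in DAPT cells and 1.12 FPKM in ethanol cells.

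Of the 19 paralogs listed here, 4 passed the minimum, of which 1 was higher, 0 were lower and 3 were not counted, with a median log2 ratio of -0.04. PAX3, a paired-box factor of the dorsal neural tube and neural crest, was the higher one with 4.70 FPKM in DAPT cells and 0.904 FPKM in ethanol cells (log2 ratio 2.38). It therefore had a larger ratio than PAX6. PAX7, its closest relative, had 0.475 FPKM in DAPT cells and 0.114 FPKM in ethanol cells, whereas the kidney and midbrain factor PAX2 had 0.0845 FPKM in DAPT cells and 0.353 FPKM in ethanol cells.

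The promoter windows of NEUROG1, POU3F2, OTX1 and SOX3, with 1 window each, are shown as examples picked after the values were seen. OTX1 was counted as higher and SOX3 as lower, while NEUROG1 and POU3F2 were under the minimum and not counted. ZIC1 also has 1 window, which is not printed and held an E-box at -57 and CCAAT boxes at -155 and -80. The RefSeq windows (build GRCh38.p14) hold the 250 bases before the start, printed 5′ to 3′ on the strand of the gene. Capitals mark matches, on either strand, to the octamer bound by POU factors (ATTTGCAT), the CCAAT box (CCAAT), the N-box (CACNAG) and the class C site (CACGCG) bound by HES repressors, and no marked matches overlap each other.
NEUROG1 (chr5:135535965-135536214, minus strand): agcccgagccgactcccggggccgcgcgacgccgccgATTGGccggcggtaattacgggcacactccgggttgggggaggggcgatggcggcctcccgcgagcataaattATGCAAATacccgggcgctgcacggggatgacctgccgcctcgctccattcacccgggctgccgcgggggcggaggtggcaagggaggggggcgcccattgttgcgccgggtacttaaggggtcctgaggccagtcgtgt
POU3F2 (chr6:98834324-98834573, plus strand): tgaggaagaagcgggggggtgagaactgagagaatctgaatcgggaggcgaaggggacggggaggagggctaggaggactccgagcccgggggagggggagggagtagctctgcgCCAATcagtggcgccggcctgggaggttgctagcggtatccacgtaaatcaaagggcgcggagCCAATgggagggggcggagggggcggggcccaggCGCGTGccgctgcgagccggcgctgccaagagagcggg
OTX1 (chr2:63050580-63050829, plus strand): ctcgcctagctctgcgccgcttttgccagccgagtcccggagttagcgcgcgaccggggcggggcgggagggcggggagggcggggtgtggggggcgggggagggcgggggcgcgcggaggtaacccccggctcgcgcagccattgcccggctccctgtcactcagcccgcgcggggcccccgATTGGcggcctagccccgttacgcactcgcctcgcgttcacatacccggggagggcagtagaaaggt
SOX3 (chrX:140505070-140505319, minus strand): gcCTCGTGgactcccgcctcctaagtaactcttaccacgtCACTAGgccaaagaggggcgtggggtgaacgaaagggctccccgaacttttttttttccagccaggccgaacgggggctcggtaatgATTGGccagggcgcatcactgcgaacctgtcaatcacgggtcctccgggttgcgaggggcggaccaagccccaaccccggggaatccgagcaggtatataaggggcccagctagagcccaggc
NEUROG1 was the only one of the 9 genes with an octamer in a window, at position -140 from the start, a motif present in 1.63% of 35116 windows of all genes. SOX3 had 2 N-box matches, at -248 and -210. An N-box was in 3 of the 18 windows of the 9 genes, 2 of them of PAX6, and in 32.0% of all windows. POU3F2 had a class C match at -38, a site in 3 of the 18 windows and in 9.72% of all windows. All 4 printed windows held a CCAAT box, which was in 9 of the 18 windows and in 32.0% of all windows. The core bound by RBPJ, the DNA-binding partner of cleaved Notch (GTGGGAA), was in none of the 18 windows and in 5.43% of all windows. The exact TATA box letters TATAAA were in none and in 10.7% of all. Variants of the TATA box were not searched, and the SOX3 window holds the letters tatataag near its end. The E-box bound by NEUROG factors (CANNTG) was in 10 of the 18 windows (6 of PAX6, 2 of OTX2, and those of ZIC1 and SOX1), none of them printed here, and in 61.8% of all windows. These matches are a description of letters in short windows. The 18 windows of the 9 genes had a median of 64.4% G and C (46.4% to 82.0%) beside 58.0% for all windows. PAX6 accounts for 9 of the 18 windows (46.4% to 70.0%), so it weighs most in this median and in the window counts above. The 2 windows of OTX2 had 47.2% and 50.0%, below the median of all windows.

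Other factors of the neural plate and brain regions were more often higher than lower. Of 52 such genes, 21 passed the minimum, of which 7 were higher, 1 was lower and 13 were not counted. Their median log2 ratio was 0.33, with 16 ratios positive and 5 negative. Among all genes past the minimum, 4.13% were higher and 4.79% lower, shares that belong beside the counts of every list. NR2F1 and NR2F2, orphan nuclear receptors that pattern the cortex and are also active in mesenchyme and crest, had 4.35 FPKM in DAPT cells against 0.687 FPKM in ethanol cells and 24.8 FPKM in DAPT cells against 6.92 FPKM in ethanol cells. EMX2, a factor of the dorsal forebrain and urogenital system, had 1.92 FPKM in DAPT cells and 0.528 FPKM in ethanol cells. FEZF1 had 8.49 FPKM in DAPT cells and 6.11 FPKM in ethanol cells. SIX3 had 4.56 FPKM in DAPT cells and 3.23 FPKM in ethanol cells. FEZF1 and SIX3 were not counted and were picked after their values were seen. The most abundant genes that were not counted were SOX4 (39.8 FPKM in DAPT cells, 43.5 FPKM in ethanol cells) and the zinc finger factor SALL1 (9.15 FPKM in DAPT cells, 15.2 FPKM in ethanol cells). The lower gene, GBX2, a hindbrain factor that also acts in pluripotent cells, had 0.973 FPKM in DAPT cells and 1.97 FPKM in ethanol cells and is named after its values were seen.

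Proneural and neuronal genes showed mostly low values. Of 36, 7 passed the minimum, of which 1 was higher, 1 was lower and 5 were not counted, with a median of -0.25. ISL1, a LIM homeodomain factor of sensory and motor neurons and of other tissues, had 12.1 FPKM in DAPT cells and 5.24 FPKM in ethanol cells. DLL3, a Notch ligand relative, had 0.766 FPKM in DAPT cells and 1.68 FPKM in ethanol cells. The abundant neuronal genes TUBB3 (129.9 FPKM in DAPT cells, 133.2 FPKM in ethanol cells) and STMN2 (8.26 FPKM in DAPT cells, 10.4 FPKM in ethanol cells) were not counted. Over the 30 genes of this list above 0 in both treatments the median was 0.39, of the opposite sign to that past the minimum. Among those below the minimum, some genes that act with or after NEUROG1 in sensory neurons were picked out after their values were seen. NEUROD1, a bHLH factor downstream of neurogenins, had 0.555 FPKM in DAPT cells and 0.00384 FPKM in ethanol cells. POU4F1, a sensory neuron factor, had 0.772 FPKM in DAPT cells and 0.131 FPKM in ethanol cells, and DCX, a microtubule protein of young neurons, had 0.425 FPKM in DAPT cells and 0.0216 FPKM in ethanol cells. Others of the list ran the other way, such as BHLHE22 (0.0697 FPKM in DAPT cells, 0.375 FPKM in ethanol cells), NHLH2 (0.505 FPKM in DAPT cells, 0.930 FPKM in ethanol cells) and ATOH1, which was listed at 0 in DAPT cells and had 0.151 FPKM in ethanol cells. Of the 29 genes of this list under the minimum, 23 were above 0 in both treatments, with 15 positive and 8 negative log2 ratios. A ratio beyond 2 was reached upwards by 11 and downwards by 3, at levels where 12.1% to 20.0% of all genes are beyond 2 upwards and 13.9% to 22.6% downwards.

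Partners and inhibitors of proneural bHLH factors were abundant, since 12 of 13 passed the minimum, of which 1 was higher, 2 were lower and 9 were not counted, with a median of 0.10. HEY1 and HEY2, repressors that Notch induces, went in opposite directions. HEY1 had 9.37 FPKM in DAPT cells and 3.79 FPKM in ethanol cells. HEY2 had 2.58 FPKM in DAPT cells and 5.85 FPKM in ethanol cells. HES1 was not counted, with 14.5 FPKM in DAPT cells and 12.7 FPKM in ethanol cells. HES5, under the minimum, had 0.0784 FPKM in DAPT cells and 0.188 FPKM in ethanol cells. The study reported HES5 and HEY2 as downregulated in these data and read this as suppressed Notch activity. ID1, which BMP induces and which keeps E-proteins from pairing with proneural factors, had 50.2 FPKM in DAPT cells and 104.0 FPKM in ethanol cells. ID3, of the same kind, had 68.3 FPKM in DAPT cells and 127.0 FPKM in ethanol cells without reaching the threshold, and ID2 was close to equal at 61.4 FPKM in DAPT cells and 62.5 FPKM in ethanol cells.

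Neural progenitor genes outside these families ranged widely in level, with means of both treatments between 0.145 FPKM for GFAP and 946 FPKM for VIM. Of 17, 14 passed the minimum, of which 3 were higher, 1 was lower and 10 were not counted, with a median of 0.44. PTN, a growth factor, had 109.9 FPKM in DAPT cells and 24.2 FPKM in ethanol cells, and HMGA2, a chromatin protein of immature cells, had 161.6 FPKM in DAPT cells and 61.3 FPKM in ethanol cells. PROM1, a membrane protein of stem and epithelial cells, had 8.84 FPKM in DAPT cells and 19.1 FPKM in ethanol cells. The intermediate filament VIM (927 FPKM in DAPT cells, 966 FPKM in ethanol cells) and the WNT modulator SFRP2 (108.7 FPKM in DAPT cells, 75.8 FPKM in ethanol cells) were not counted. Many of these genes are also expressed in crest, mesenchyme and epithelium.

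**Figure D4:**
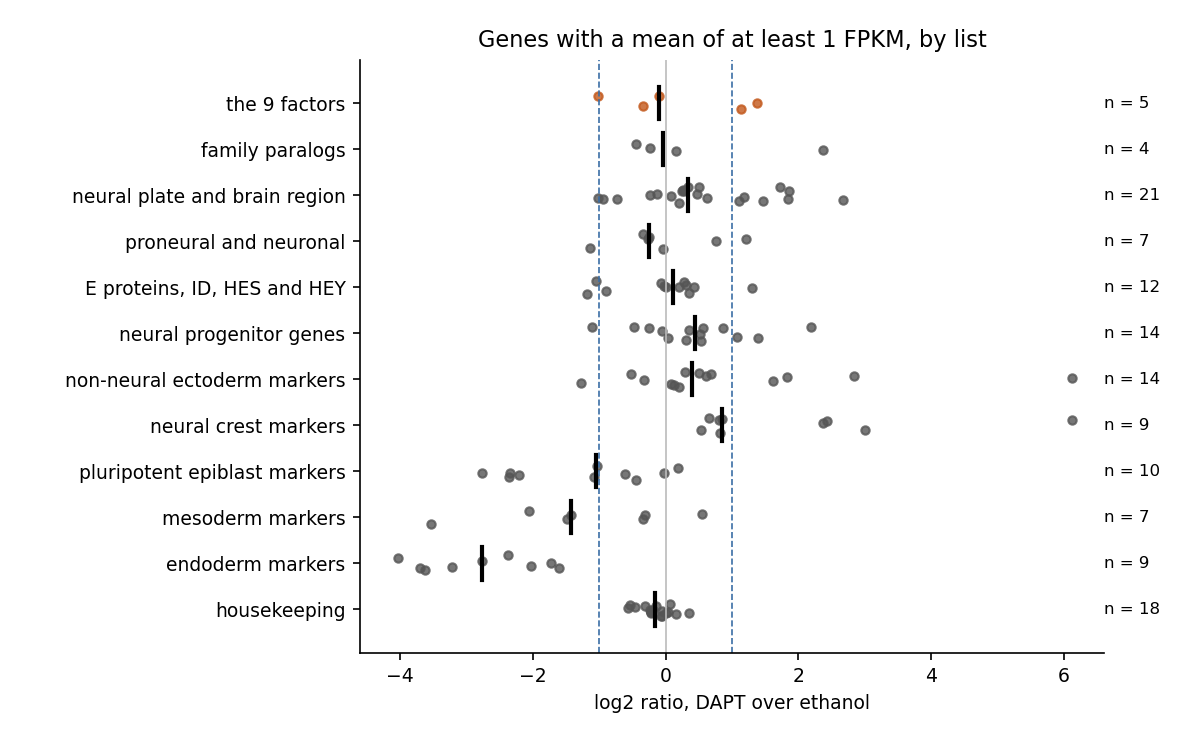
Log2 ratio of DAPT over ethanol of each gene past the minimum of 1 FPKM (points), with the median (bar), for the 9 factors and other gene lists, with the number of genes at the right. Medians run from -2.77 in endoderm markers to 0.85 in neural crest markers. The 5 of the 9 factors that passed the minimum lie near the middle at -0.10. Over the 8 factors above 0 in both treatments, not all drawn here, the median was 0.56.

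Markers of other cell types also differed between treatments, in directions that varied by list, and their part in the results was not tested. In the epiblast, endoderm, mesoderm, neural crest and non-neural ectoderm lists, 0 genes were listed at 0. Pluripotent epiblast markers, a list that also holds SOX2, were lower as a list, and OTX2, SOX3 and ZIC2 are also known from pluripotent cells. Of 12, 10 passed the minimum and 6 were lower with 0 higher (median -1.05), with sums of 351 FPKM in DAPT cells and 793 FPKM in ethanol cells. GDF3 (2.05 FPKM in DAPT cells, 14.0 FPKM in ethanol cells) and NANOG (2.06 FPKM in DAPT cells, 10.5 FPKM in ethanol cells) were among the lower genes. LIN28A (90.4 FPKM in DAPT cells, 138.0 FPKM in ethanol cells) and ZFP42 (57.0 FPKM in DAPT cells, 58.0 FPKM in ethanol cells) were not counted.

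All 9 of 11 endoderm markers that passed the minimum were lower (median -2.77), with sums of 53.8 FPKM in DAPT cells and 559 FPKM in ethanol cells. They included the apolipoprotein gene APOA1 (24.7 FPKM in DAPT cells, 403 FPKM in ethanol cells), the transport protein gene TTR (3.79 FPKM in DAPT cells, 46.5 FPKM in ethanol cells) and the endoderm factor FOXA2 (0.370 FPKM in DAPT cells, 4.79 FPKM in ethanol cells). Of 11 mesoderm markers, 7 passed and 4 were lower with 0 higher (median -1.42), with sums of 85.0 FPKM in DAPT cells and 112.3 FPKM in ethanol cells. EOMES (0.842 FPKM in DAPT cells, 9.69 FPKM in ethanol cells), brachyury, listed as T (0.480 FPKM in DAPT cells, 2.00 FPKM in ethanol cells), and PDGFRA (3.10 FPKM in DAPT cells, 8.68 FPKM in ethanol cells) were lower. HAND1 (50.0 FPKM in DAPT cells, 62.1 FPKM in ethanol cells) and MEOX1 (18.6 FPKM in DAPT cells, 12.6 FPKM in ethanol cells) were not counted.

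Neural crest markers had the highest median (0.85). Of 10, 9 passed and 4 were higher with 0 lower, with sums of 56.3 FPKM in DAPT cells and 20.9 FPKM in ethanol cells. PAX3 belongs to this list as well as to the paralogs. The crest factors SNAI2 (16.4 FPKM in DAPT cells, 2.04 FPKM in ethanol cells) and SOX10 (3.49 FPKM in DAPT cells, 0.649 FPKM in ethanol cells) were higher, while the receptor gene ERBB3 (9.68 FPKM in DAPT cells, 6.17 FPKM in ethanol cells) and SOX9 (6.48 FPKM in DAPT cells, 4.50 FPKM in ethanol cells) were not counted. Of 16 non-neural ectoderm markers, 14 passed, of which 4 were higher and 1 was lower (median 0.40), with sums of 1981 FPKM in DAPT cells and 1728 FPKM in ethanol cells. TFAP2B, which is on both lists, had 3.60 FPKM in DAPT cells and 0.0519 FPKM in ethanol cells. The basal epidermal factor TP63 (3.88 FPKM in DAPT cells, 0.546 FPKM in ethanol cells) and the epithelial factor GRHL2 (13.9 FPKM in DAPT cells, 3.90 FPKM in ethanol cells) were also higher. The simple epithelial keratins KRT8 (961 FPKM in DAPT cells, 876 FPKM in ethanol cells) and KRT18 (846 FPKM in DAPT cells, 687 FPKM in ethanol cells) were not counted.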

How the data were processed

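RNA of day 10 was sequenced from 3 DAPT and 3 ethanol libraries. Reads were mapped to hg19 by the authors with TopHat2 2.0.6, who computed expression with Cufflinks, and the FPKM values deposited are 1 per treatment over its libraries. The annotation and the scaling of libraries are not stated in these sources. The authors' columns of log2 fold change, test statistic, p-value, q-value and significance in the table were not used. Of 23615 rows, 347 that the authors marked as failed, too few data or too complex were left out, and 23268 remained.

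Ratios were computed as log2 of DAPT over ethanol with no pseudocount, in Python 3.11.15 with pandas 2.3.3 and numpy 2.4.6. Filed loci were given 1 base later, since their starts count from 0. Promoter windows came from RefSeq (GRCh38.p14) and matched all 9 genes by symbol. No test was made, because each treatment has 1 value.

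The members and the gene lists were chosen with earlier results of these data known, so their counts are no independent support. Named genes were the 9 factors, paralogs with a mean of at least 1 FPKM, for each other list the 3 counted genes with the largest ratio and up to 2 uncounted genes with the highest mean, and POU5F1 and TFAP2A. Other genes, among them paralogs under the minimum, were named after their values were seen. Results of some genes are not reported here, and the lists were counted without them. Alternatives were pseudocounts of 0.1 and 1, centring on all genes or on 18 housekeeping genes, no minimum or 5 FPKM, and ratios of 1.5 and 4.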

Additional observations from a re-analysis of the deposited data

How the results depend on the processing

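No alternative could reverse the direction of a factor past 2-fold, so an unchanged direction is no support. An equal pseudocount keeps the sign, thresholds leave the ratio as it is, and the centring shifts were only 0.0010 and -0.16. The counts depended on the threshold. The number of factors lower was 0, against 1 as reported, with pseudocounts of 0.1 and 1, with housekeeping centring, with a minimum of 5 FPKM and with a ratio of 4. The number higher, 2 as reported, was 0 with a pseudocount of 1, a minimum of 5 FPKM or a ratio of 4, and 4 with no minimum. The median over the 8 factors above 0 in both treatments, 0.56 as reported, was 0.72 with housekeeping centring. Other medians cover other genes, 0.54 and 0.0947 with pseudocounts of 0.1 and 1 over all 9 factors, and -0.22 with a minimum of 5 FPKM over 2, OTX2 and ZIC2. Over all genes, 1548 were higher and 1863 lower with no minimum, 234 and 248 with 5 FPKM, 1235 and 1351 with a ratio of 1.5, and 149 and 150 with a ratio of 4. With a pseudocount of 1, 400 genes were higher and 402 lower. Housekeeping centring gave 696 higher and 463 lower. OTX2, not counted as lower, turned to 0.06 with housekeeping centring. Centring on all genes moved no count of the factors. No paired analysis was possible because the columns hold 1 pooled value per treatment and carry no replicate numbers, and leaving out each replicate was not run for the same reason.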

Other observations

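Cranial placode and eye markers, among which PAX6 and OTX2 also act, were divided. Of 21, 8 passed the minimum, of which 2 were higher, 2 were lower and 4 were not counted, with a median log2 ratio of -0.33 and sums of 59.3 FPKM in DAPT cells and 94.7 FPKM in ethanol cells. The placode cofactors EYA1 (2.76 FPKM in DAPT cells, 0.360 FPKM in ethanol cells) and EYA2 (3.19 FPKM in DAPT cells, 0.457 FPKM in ethanol cells) were higher, and the lens crystallin CRYAB (10.7 FPKM in DAPT cells, 37.4 FPKM in ethanol cells) was lower. The pigment gene PMEL (19.6 FPKM in DAPT cells, 19.8 FPKM in ethanol cells) and the anterior ectoderm factor PITX1 (3.17 FPKM in DAPT cells, 4.92 FPKM in ethanol cells) were not counted.

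Antagonists of BMP and activin signalling, which favour neural induction, held no gene counted as higher. Of 12, 9 passed the minimum, of which 0 were higher, 3 were lower and 6 were not counted, with a median of -0.24. LEFTY1 (0.640 FPKM in DAPT cells, 2.93 FPKM in ethanol cells), CER1 (2.97 FPKM in DAPT cells, 12.0 FPKM in ethanol cells) and the inhibitory SMAD6 (3.20 FPKM in DAPT cells, 12.0 FPKM in ethanol cells) were lower. BAMBI (144.0 FPKM in DAPT cells, 170.3 FPKM in ethanol cells) and GREM1 (46.4 FPKM in DAPT cells, 55.2 FPKM in ethanol cells) were not counted. CER1 is also on the endoderm list. NOG had 5.40 FPKM in DAPT cells and 4.25 FPKM in ethanol cells and was not counted either. CHRD, under the minimum, had 0.887 FPKM in DAPT cells and 0.542 FPKM in ethanol cells. NOG and CHRD were picked after their values were seen. Past the minimum, 3 log2 ratios of this list were positive and 6 negative.

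Housekeeping genes had log2 ratios from -0.57 to 0.36, and 0 of 18 were beyond 2. GAPDH had 2690 FPKM in DAPT cells and 3116 FPKM in ethanol cells, and ACTB had 2384 FPKM in DAPT cells and 2768 FPKM in ethanol cells.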
